A study of Mus musculus with 8 samples.

Results

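The cell cycle engine of mouse embryonic stem (ES) cells was followed through 46 genes for cyclins, cyclin-dependent kinases (CDKs), CDK inhibitors, the Rb and E2F proteins and DNA replication factors, chosen by name. Each was read by the probe set that the platform annotation gives to that symbol alone and that had the highest mean over the 8 arrays. Of the 46 genes, 45 could be read in this way, out of 18193 genes in all, and Ccnb1 was not analysed here. The arrays are one-colour Affymetrix arrays of total RNA from ES cells of the strain labelled Oct4-Gip, at passage 25, taken on day 4 after lipofection with an esiRNA (an enzyme-cut mixture of siRNAs against a single gene). One group of 4 arrays had an esiRNA against Ctr9, which encodes a scaffold subunit of the RNA polymerase II elongation complex Paf1, and the control group of 4 had an esiRNA against luciferase, which mouse cells do not make. All cells of both groups thus went through transfection. The comparison asks how these transcripts respond when Ctr9 is targeted. Whether replicates are independent cultures is not stated in the labels, so p-values reflect the spread among these arrays alone, and that spread may be technical.

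Progress through the cell cycle is driven by CDKs that are switched on by cyclins. D cyclins with Cdk4 or Cdk6 and E cyclins with Cdk2 phosphorylate the Rb proteins in G1, which frees E2F factors to transcribe the genes of DNA synthesis, and A and B cyclins with Cdk2 and Cdk1 then carry the cell through S phase and mitosis. ES cells are known for a short G1 phase, with cyclin E and Cdk2 activity high through much of the cycle and Rb proteins largely phosphorylated, and for longer G1 phases and more D cyclin once they differentiate.

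Values are log2 probe set signals as deposited, and a difference is the Ctr9 esiRNA mean minus the luciferase esiRNA mean on that scale. A gene passed when its adjusted p from limma, a linear model fitted over all 45037 probe sets, was under 0.05 after Benjamini-Hochberg adjustment. Of the 45 members, 10 were higher and 11 were lower with Ctr9 esiRNA, and 24 did not pass. The share that passed was 46.7%, against 30.8% of all genes (15.8% higher and 15.0% lower) and 24.9% of all probe sets. Nearly all members (44 of 45) read above the median signal of all probe sets (5.75), where 42.1% of genes passed. The members' share was close to that of this set, which was not matched to the members in brightness. The values of the 4 arrays of one group did not overlap those of the other for 27 members (60.0%), against 36.6% of all genes and 50.7% of genes read above the median signal. The changes were small. The median size of the members' differences was 0.14, the same as for genes read above the median signal, 1 member moved by at least 1.5-fold, and none by 2-fold. The members' median difference was -0.01, with calls in both directions.

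**Figure D1:**
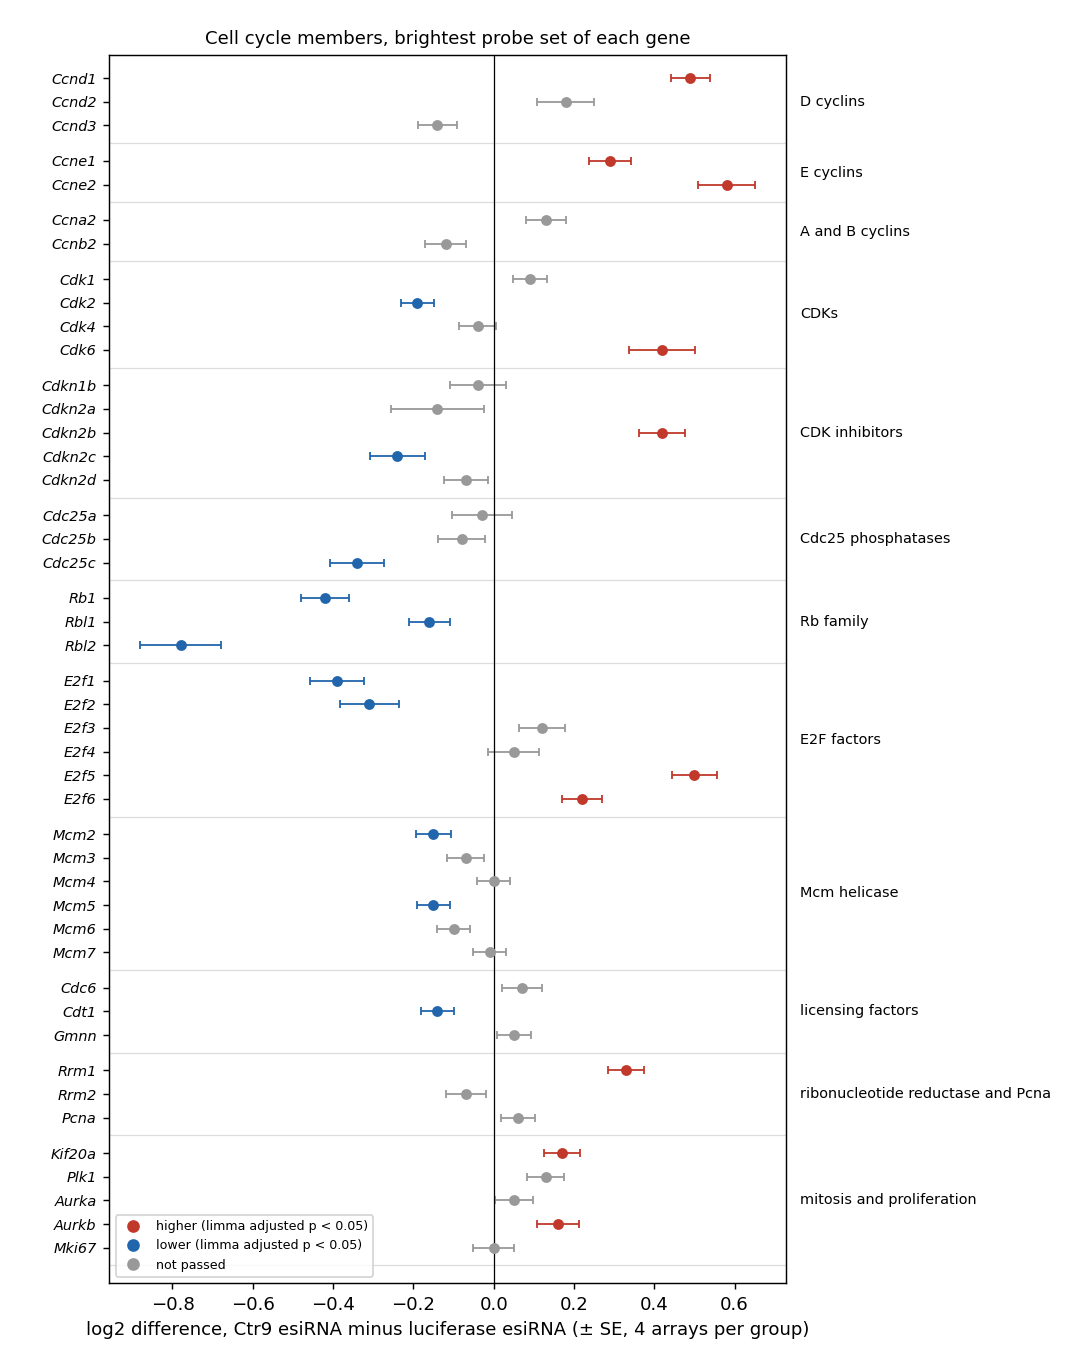
The log2 difference (x axis, Ctr9 esiRNA minus luciferase esiRNA) of the 45 members, each on its brightest probe set, with limma's standard error as bars and 4 arrays per group. The groups of genes are named at the right. Red points passed as higher and blue points as lower, and grey points did not pass: both E cyclins lie to the right, the 3 Rb family genes to the left, and the E2F genes on either side of 0.

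Calls lay in both directions, also within families. Both E cyclins, cyclin D1, Cdk6, the inhibitor gene Cdkn2b, E2f5, E2f6 and the ribonucleotide reductase gene Rrm1 were higher, while the 3 Rb family genes, E2f1, E2f2, Cdk2, Cdkn2c and Cdc25c were lower. Proliferation markers and most of the replicative helicase genes moved little. Calls that held under all 21 alternative settings tried were those of Ccnd1, Ccne1, Ccne2, Cdk6, Cdkn2b, E2f5 and Rrm1, which rose, and Rbl2 and E2f1, which fell. Ccne2 and Cdkn2b have 1 probe set each, so settings on the choice of probe set read the same one for them.

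The sequences upstream of 4 members are shown because these genes belong to the same transition into S phase, have E2F-type letters before their start sites, and yet went in opposite directions. Ccne1 and Rrm1 were higher, and Cdk2, which encodes the kinase that E cyclins activate, and the helicase gene Mcm5 were lower. Each line holds the 250 bases before the gene's start in RefSeq's annotation of GRCm38.p6, read 5′ to 3′ on the gene's strand. Capitals mark TTTNNCGC, a loose form of the E2F motif, and TCCCGC, a shorter core, on either strand, and the core may lie within the longer motif.
Ccne1, chr7:38107491-38107740, strand -: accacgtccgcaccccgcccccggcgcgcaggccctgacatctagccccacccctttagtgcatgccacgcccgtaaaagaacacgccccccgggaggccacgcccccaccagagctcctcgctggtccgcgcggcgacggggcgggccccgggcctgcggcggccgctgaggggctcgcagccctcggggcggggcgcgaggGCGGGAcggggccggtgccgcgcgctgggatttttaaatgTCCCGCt
Rrm1, chr7:102441445-102441694, strand +: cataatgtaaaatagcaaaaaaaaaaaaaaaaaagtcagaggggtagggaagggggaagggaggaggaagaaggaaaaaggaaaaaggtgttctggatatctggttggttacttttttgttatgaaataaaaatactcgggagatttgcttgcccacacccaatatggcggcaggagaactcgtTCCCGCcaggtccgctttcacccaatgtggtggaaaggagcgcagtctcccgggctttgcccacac
Cdk2, chr10:128705052-128705301, strand -: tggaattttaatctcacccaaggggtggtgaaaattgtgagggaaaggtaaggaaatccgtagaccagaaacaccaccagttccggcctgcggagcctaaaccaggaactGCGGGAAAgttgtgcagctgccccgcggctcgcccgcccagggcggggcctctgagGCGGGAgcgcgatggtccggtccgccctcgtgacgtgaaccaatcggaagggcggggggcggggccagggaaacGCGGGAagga
Mcm5, chr8:75109259-75109508, strand +: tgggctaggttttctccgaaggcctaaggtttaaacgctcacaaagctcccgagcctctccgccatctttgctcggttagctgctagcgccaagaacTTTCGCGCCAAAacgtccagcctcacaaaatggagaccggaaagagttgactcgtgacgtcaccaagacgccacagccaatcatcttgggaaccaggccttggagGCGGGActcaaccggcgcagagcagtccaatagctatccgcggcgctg

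Of the 45 measured members, 33 had such a window. These included 5 of the 10 higher and 9 of the 11 lower members. Ccnd1, Ccne2, E2f5 and Rb1 were among those without one. TTTNNCGC was found in 11 of the 33 members' windows, against 4.94% of 27025 genes in the table (a gene with several windows counted if any held the motif), and TCCCGC in 15, against 18.8%. Among members that were higher, TTTNNCGC stood in 1 of 5 (Cdk6), among those that were lower in 3 of 9 (Cdk2, Rbl1 and Mcm5), and among those that did not pass in 7 of 19. For TCCCGC these were 4 of 5, 4 of 9 and 7 of 19. Members in each direction therefore had these letters, and so did members that did not pass. CCAAT, the box bound by NF-Y, was found in 21 of the 33 windows, against 37.5% of genes. It stood in 1 of 5 higher members (Rrm1), 4 of 9 lower members and 16 of 19 that did not pass, among them Plk1, Aurka, Ccnb2, Cdk1 and Mki67. TTTGAA, the core of the cell cycle homology region of many mitotic genes, was found in 8 windows, against 18.3% of genes. These are matches of letters, given with no test, and they may overlap.

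Among the D cyclins, which link growth signals to G1, 1 of 3 passed. Ccnd1 read 9.72, 9.72, 9.77 and 9.77 in luciferase arrays 1 to 4 and 10.33, 10.20, 10.17 and 10.22 in Ctr9 esiRNA arrays 1 to 4. All 4 Ctr9 esiRNA values lay above all luciferase values, at a difference of 0.49 (SE 0.049, 1.4-fold, limma adjusted p = 6.01e-05). The other Ccnd1 probe sets rose by 0.41 and 0.34, the last on 3 Ctr9 esiRNA values, since its first was empty. Ccnd2 read 8.56 to 8.78 with luciferase esiRNA and 8.69 to 8.94 with Ctr9 esiRNA, so the groups overlapped, and its difference of 0.18 (SE 0.071) did not pass (limma adjusted p = 0.097). All 7 Ccnd2 probe sets differed upwards, by 0.04 to 0.40, of which 1 passed (0.23, limma adjusted p = 0.0258). The brightest did pass without luciferase replicate 4 (0.0485), with only probe sets above the median signal (0.0473) and with a trended robust prior (0.0321). Ccnd3 read 11.35 to 11.45 against 11.18 to 11.31, without overlap, and its difference of -0.14 (SE 0.048) narrowly missed the threshold, at a limma adjusted p that rounds to 0.050. It passed with quantile normalization (0.0284), with only probe sets above the median signal (0.0142) and with a trended robust prior (0.00295).

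Both E cyclins, the activators of Cdk2 at the entry to S phase, rose. Ccne2 read 7.09, 7.27, 7.01 and 7.06 with luciferase esiRNA and 7.83, 7.57, 7.64 and 7.71 with Ctr9 esiRNA. The groups lay apart, at a difference of 0.58 (SE 0.072, 1.49-fold, limma adjusted p = 0.000243), the largest rise among the members, on the only Ccne2 probe set. Ccne1 read 11.26, 11.12, 11.20 and 11.23 against 11.55, 11.53, 11.46 and 11.42, a smaller rise of 0.29 (SE 0.052, 1.22-fold, limma adjusted p = 0.00245). Its other probe set rose by 0.31. For both genes every Ctr9 esiRNA array was above every luciferase array.

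Cyclins of S phase and mitosis showed no call in the main fit. Ccna2 read 11.51 to 11.64 with luciferase esiRNA and 11.65 to 11.79 with Ctr9 esiRNA, a difference of 0.13 (SE 0.050, limma adjusted p = 0.0868), and its other probe set differed by -0.03. Ccnb2 read 12.18 to 12.20 against 11.95 to 12.15, a difference of -0.12 (SE 0.052, limma adjusted p = 0.138). The groups did not overlap for either gene, but the lowest Ctr9 esiRNA value of Ccna2 lay only just above the highest luciferase value. Under other settings Ccna2 passed, with only probe sets above the median signal (limma adjusted p = 0.0304) and with a trended robust prior (0.00781). Ccnb2 passed with that prior (0.0169).

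The 4 CDK genes split. Cdk6, a partner of the D cyclins, read 7.83, 8.0, 8.05 and 8.24 with luciferase esiRNA and 8.42, 8.37, 8.53 and 8.48 with Ctr9 esiRNA. It rose by 0.42 (SE 0.082, 1.34-fold, limma adjusted p = 0.00374) with no overlap, and a second probe set rose by 0.55, while a dim one at about the level of unexpressed genes did not move (0.00, SE 0.128). Cdk4, the other partner, did not pass (-0.04, SE 0.046), with values of 11.96 to 12.07 against 11.93 to 12.01. Cdk2 read 9.88, 9.90, 9.96 and 9.90 against 9.72, 9.70, 9.73 and 9.74, and fell by 0.19 (-12.2%, SE 0.042, limma adjusted p = 0.0085), so the kinase gene was lower while both genes for its G1 cyclins were higher. The Cdk2 call ended with the mean over its probe sets (-0.06, limma adjusted p = 0.269), the second of which is near 3 on the log2 scale, and with luciferase arrays 1 and 2 alone as controls (0.0628). Cdk1, the mitotic kinase, read 11.82 to 11.89 against 11.93 to 11.99 and did not pass (0.09, SE 0.043, limma adjusted p = 0.152). It did pass with only probe sets above the median signal (0.0497) and with a trended robust prior (0.0164).

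Among the CDK inhibitor genes of the list, 1 rose, 1 fell and 3 did not pass. Cdkn2b, which encodes the INK4 inhibitor p15 of Cdk4 and Cdk6, read 7.10, 7.08, 7.09 and 7.17 with luciferase esiRNA and 7.55, 7.43, 7.50 and 7.66 with Ctr9 esiRNA, a rise of 0.42 (SE 0.057, 1.34-fold, limma adjusted p = 0.000376) with groups well apart. Its neighbour in the INK4 locus, Cdkn2a, read 5.46 to 5.65 against 5.03 to 5.64, overlapping values at the level of the dimmer probe sets, and did not pass (-0.14, SE 0.117). Cdkn2c, the gene of the INK4 inhibitor p18, read 6.01, 6.16, 6.14 and 6.0 against 5.78, 5.91, 5.95 and 5.70, and fell by 0.24 (SE 0.068, limma adjusted p = 0.025). This call ended without luciferase replicate 2 (0.0679) or 3 (0.0665) and without Ctr9 esiRNA replicate 1 (0.068) or 4 (0.0671). Cdkn2d, the last INK4 gene, read 8.34 to 8.44 against 8.23 to 8.42 (-0.07, SE 0.055), and Cdkn1b, which encodes the Cdk2 inhibitor p27, read 8.82 to 9.11 against 8.86 to 9.03 (-0.04, SE 0.070). Neither passed, and in each the groups overlapped.

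Outside the list, the CDK inhibitor gene Cdkn1c (p57), which is imprinted, moved far more than any member. It read 8.74, 8.67, 8.87 and 8.90 with luciferase esiRNA and 10.60, 10.55, 10.47 and 10.59 with Ctr9 esiRNA, a rise of 1.76 (SE 0.062, 3.38-fold, limma adjusted p = 9.53e-08). Cdkn1c has only 1 probe set. Cdkn1a, the p53-responsive inhibitor gene p21, read 9.43 to 9.79 against 9.49 to 9.73 and did not differ beyond its spread (0.00, SE 0.082). Within the Cip/Kip family, then, 1 of 3 genes passed, against 30.8% of all genes and 42.1% of genes read above the median signal.

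The Cdc25 phosphatases remove inhibitory phosphates from CDKs. Cdc25c, which acts at the entry to mitosis, read 8.96, 8.98, 8.84 and 8.86 with luciferase esiRNA and 8.39, 8.55, 8.66 and 8.67 with Ctr9 esiRNA, and fell by 0.34 (-21.1%, SE 0.068, limma adjusted p = 0.00427). A second Cdc25c probe set fell by 0.26. Cdc25a (-0.03, SE 0.075) and Cdc25b (-0.08, SE 0.059) did not pass and their groups overlapped. With only luciferase arrays 3 and 4 as controls, Cdc25c no longer passed (limma adjusted p = 0.0543).

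**Figure D2:**
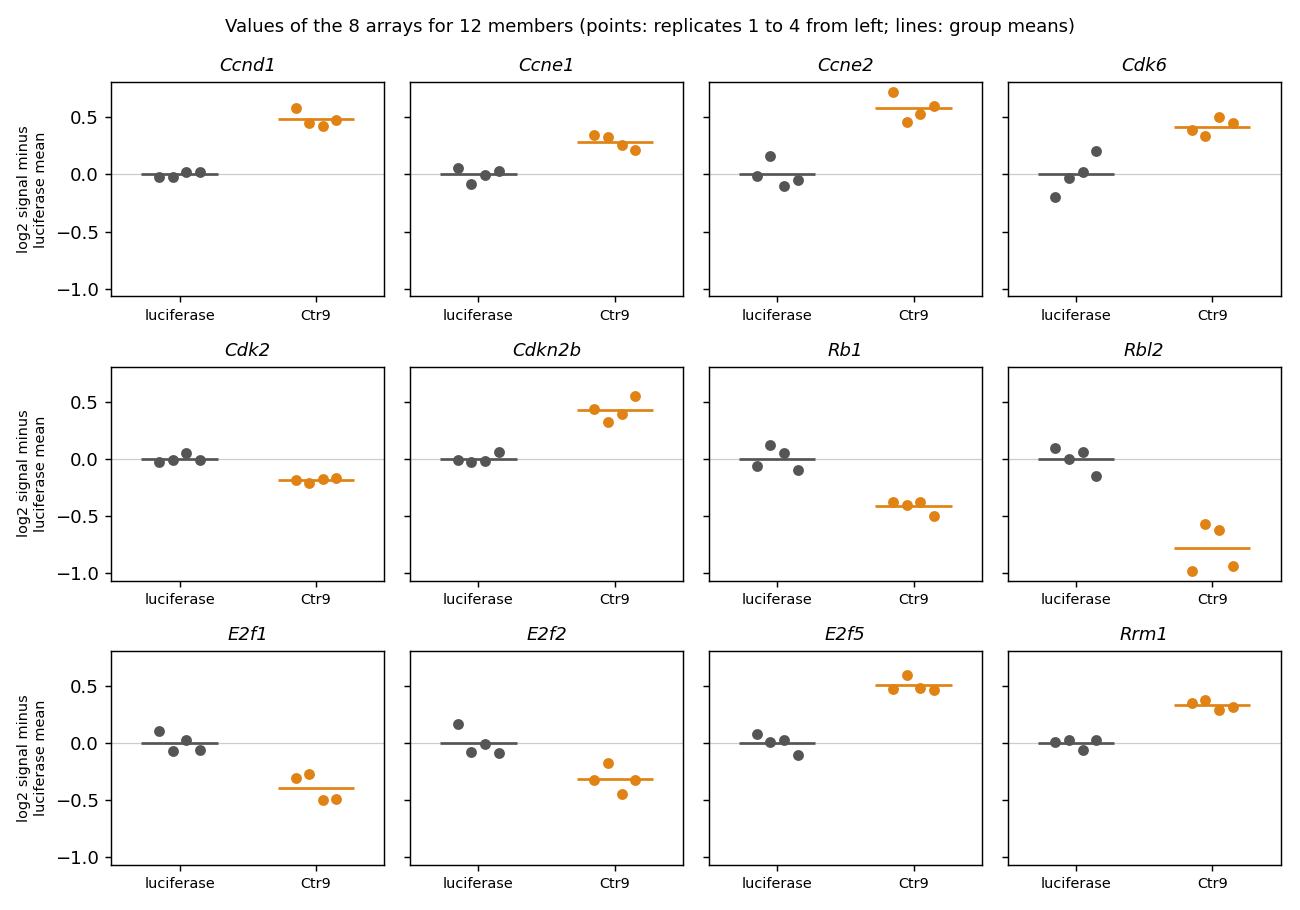
Values of the 8 arrays for 12 members as log2 signal minus the luciferase mean of that gene (y axis, the same for all panels), with replicates 1 to 4 from left to right in each group and lines at the group means. The 12 were picked from members that passed, and groups did not overlap for 27 of the 45 members. In each panel all 4 Ctr9 esiRNA points lie on one side of all 4 luciferase points, from 0.19 below for Cdk2 to 0.78 below for Rbl2 and 0.58 above for Ccne2.

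All 3 genes of the Rb family, the pocket proteins that hold E2F factors in check, passed as lower on their brightest probe sets, Rb1 and Rbl1 on that probe set alone. Rbl2, which encodes p130, read 7.46, 7.36, 7.42 and 7.21 with luciferase esiRNA and 6.38, 6.79, 6.74 and 6.42 with Ctr9 esiRNA. It fell by 0.78 (-41.7%, SE 0.101, limma adjusted p = 0.000298), the largest change of any member, although the Ctr9 esiRNA arrays lay in a lower pair (1 and 4) and a higher pair (2 and 3). A second Rbl2 probe set fell by 0.64. Its Ctr9 esiRNA values of 5.78, 5.72, 5.82 and 5.97 did not show these pairs. Rb1 read 8.88, 9.06, 8.99 and 8.84 against 8.56, 8.54, 8.56 and 8.44, a fall of 0.42 (SE 0.060, limma adjusted p = 0.000632), or -25.0%. A dim second Rb1 probe set, at 3.94 in the controls, was higher (0.24, limma adjusted p = 0.0102), which makes Rb1 the 1 member whose brightest probe set had a call opposed by another and leaves its mean over probe sets at -0.09 (limma adjusted p = 0.176). Rbl1, which encodes p107, read 8.33, 8.44, 8.41 and 8.36 against 8.29, 8.15, 8.23 and 8.24, without overlap. Its fall of 0.16 (SE 0.050, limma adjusted p = 0.043) is the weakest of the 3: it did not pass with median centring (0.0608), quantile normalization (0.0557) or cyclic loess (0.0802), nor without luciferase replicate 2 (0.103), 3 (0.0974) or 4 (0.0607) or Ctr9 esiRNA replicate 2 (0.114), 3 (0.0801) or 4 (0.0766). The other 3 Rbl1 probe sets, all dimmer, differed by 0.03, -0.11 and -0.01 without passing, and the mean over all 4 was -0.06 (limma adjusted p = 0.23).

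Of the 6 E2F genes, 2 fell, 2 rose and 2 did not pass. E2f1, E2f2 and E2f3 act mainly as activators bound by Rb, and E2f4, E2f5 and E2f6 mainly as repressors, E2f6 without a pocket protein. E2f1 read 9.05, 8.88, 8.97 and 8.89 with luciferase esiRNA and 8.64, 8.68, 8.45 and 8.46 with Ctr9 esiRNA, a fall of 0.39 (SE 0.068, limma adjusted p = 0.00195), or -23.6%, and its other probe sets fell by 0.37 and 0.28. E2f2 read 7.50, 7.26, 7.33 and 7.25 against 7.01, 7.16, 6.89 and 7.01, a fall of 0.31 (SE 0.074, limma adjusted p = 0.0105), with a second probe set at -0.42. With luciferase arrays 3 and 4 alone as controls E2f2 did not pass (limma adjusted p = 0.0566). These 2 activator genes had no overlap between groups, while the third, E2f3, read 8.86 to 9.0 against 8.97 to 9.15 and did not pass (0.12, SE 0.057).

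Of the repressor class, E2f5 read 9.39, 9.32, 9.34 and 9.21 with luciferase esiRNA and 9.79, 9.91, 9.80 and 9.78 with Ctr9 esiRNA. It rose by 0.50 (SE 0.055, 1.42-fold, limma adjusted p = 9.65e-05), a second probe set rose by 0.36 and another differed by 0.09 without passing. E2f6 read 9.45, 9.46, 9.46 and 9.37 against 9.66, 9.65, 9.58 and 9.75, a rise of 0.22 (SE 0.050, limma adjusted p = 0.00833). Its dim second probe set differed by -0.15, so that the mean over both (0.04) did not pass (limma adjusted p = 0.558). With luciferase arrays 1 and 2 alone as controls E2f6 did not pass either (0.0575). E2f4 read 8.86 to 9.06 against 8.87 to 9.06 and did not pass (0.05, SE 0.064). The classes were not tested against each other.

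The 6 Mcm genes encode the hexamer that unwinds DNA at the replication fork, and they moved little, between -0.15 and 0.00. Mcm2 read 12.09, 12.04, 12.12 and 12.15 with luciferase esiRNA and 11.92, 11.97, 11.97 and 11.93 with Ctr9 esiRNA, a fall of 0.15 (SE 0.044, limma adjusted p = 0.031). Mcm5 read 13.07, 13.11, 13.06 and 13.08 against 12.96, 12.89, 12.93 and 12.93, a fall of 0.15 (SE 0.042, limma adjusted p = 0.0216), or about -10.2%. Its less bright probe sets fell further, by 0.31 and 0.48, whereas the second Mcm2 probe set differed by -0.02 and the mean over both Mcm2 probe sets, -0.08, did not pass (limma adjusted p = 0.0796). Mcm3 (-0.07), Mcm4 (0.00), Mcm6 (-0.10) and Mcm7 (-0.01) did not pass. Mcm6 did pass with only probe sets above the median signal (limma adjusted p = 0.0371) and with a trended robust prior (0.00401). Of the 5 Mcm3 probe sets 2 fell and a dim one rose. By limma adjusted p, Mcm2 no longer passed when luciferase replicate 1 (0.0572), 3 (0.0749) or 4 (0.075) or Ctr9 esiRNA replicate 1 (0.0693), 2 (0.0542) or 4 (0.078) was left out, and Mcm5 when this was done with luciferase replicate 2 (0.0537) or Ctr9 esiRNA replicate 2 (0.0611) or 4 (0.0519).

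Of the factors that load or restrain the helicase, Cdt1 read 12.74, 12.76, 12.72 and 12.75 with luciferase esiRNA and 12.58, 12.59, 12.62 and 12.62 with Ctr9 esiRNA, a fall of 0.14 (SE 0.041, limma adjusted p = 0.0288) with little spread. The call needed all 8 arrays: without any 1 of them the limma adjusted p lay between 0.0514 and 0.0679. A second bright Cdt1 probe set differed by -0.10 without overlap and did not pass (limma adjusted p = 0.139). A dim one, at 3.19 in the controls, differed by 0.30 and did not pass either (0.0516). With the mean over all these probe sets the difference was 0.02 (limma adjusted p = 0.781). Cdc6, the other loader, read 10.76 to 10.90 against 10.84 to 10.94 (0.07, SE 0.050), and Gmnn, which encodes the Cdt1 inhibitor geminin, 11.49 to 11.58 against 11.57 to 11.59 (0.05, SE 0.043). Neither passed.

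Ribonucleotide reductase, which makes the deoxynucleotides for DNA synthesis, changed in its large subunit gene. Rrm1 read 10.97, 10.99, 10.90 and 10.99 with luciferase esiRNA and 11.31, 11.34, 11.25 and 11.28 with Ctr9 esiRNA, a rise of 0.33 (SE 0.045, 1.26-fold, limma adjusted p = 0.000406), a second probe set rose by 0.35, and another differed by -0.05 without passing. Rrm2, the small subunit gene, read 12.35 to 12.50 against 12.29 to 12.41, with overlap, and did not pass (-0.07, SE 0.050). One of its other probe sets fell by 0.15 (limma adjusted p = 0.0469). Pcna, the sliding clamp of the polymerases, read 13.46 to 13.55 against 13.54 to 13.58 and did not pass (0.06, SE 0.043). The difference between the subunit genes was itself not tested.

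Genes of mitosis and proliferation stayed within 0.17 of the control. Mki67, the usual marker of cycling cells, read 10.62 to 10.75 with luciferase esiRNA and 10.64 to 10.74 with Ctr9 esiRNA, a difference of 0.00 (SE 0.051, limma adjusted p = 0.979). Kif20a, a kinesin of cytokinesis, read 10.75, 10.76, 10.71 and 10.75 against 10.85, 10.92, 10.91 and 10.98, a rise of 0.17 (SE 0.045, limma adjusted p = 0.0187) that did not pass without luciferase replicate 3 (0.0522) or Ctr9 esiRNA replicate 4 (0.0588). Aurkb, a kinase of chromosome segregation, read 9.90, 10.07, 9.96 and 9.91 against 10.10, 10.17, 10.13 and 10.09, a rise of 0.16 (SE 0.052, limma adjusted p = 0.0429). When 1 array was left out it passed only without luciferase replicate 2, and without any other single array its limma adjusted p lay between 0.0662 and 0.108. Plk1 (0.13, SE 0.046, limma adjusted p = 0.062) did not pass except without Ctr9 esiRNA replicate 1 (0.0304), with median centring (0.0467), and under 4 other settings. Aurka did not pass (0.05, SE 0.047). Bulk arrays cannot tell fewer cells in a phase from less RNA per cell.

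Of the 45 members, 30 have more than 1 probe set. For 17 of these the brightest probe set passed, and for 10 of the 17 another probe set passed in the same direction. These were Ccnd1, Ccne1, Cdk6, Cdc25c, Rbl2, E2f1, E2f2, E2f5, Mcm5 and Rrm1. Ccne2, Cdkn2b, Cdkn2c and Kif20a were called on their only probe set. Ccnd2, Mcm3 and Rrm2 had a call on a dimmer probe set but not on the brightest.

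**Figure D3:**
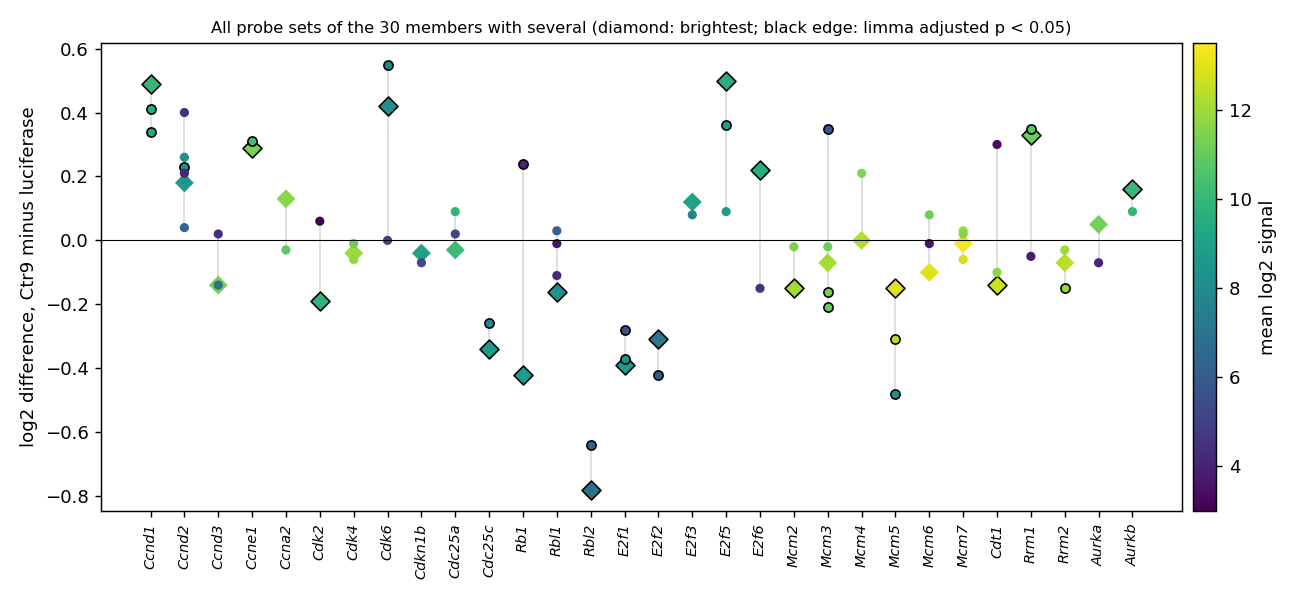
The log2 difference (y axis, Ctr9 esiRNA minus luciferase esiRNA) of every probe set of the 30 members that have several, coloured by mean log2 signal. Diamonds are the brightest probe sets, which the text reads, and black edges mark a limma adjusted p under 0.05. All probe sets of Ccnd1, Ccne1, Rbl2 and E2f1 have black edges and lie on one side of 0, while the dim ones of Rb1 (0.24) and Mcm3 (0.35) lie on the other side of 0 from the brightest.

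Other cell cycle genes were read from 8 lists of 106 genes, of which 103 were measured: 11 were higher and 21 lower (31.1% in all, against 30.8% of all genes and 42.1% of genes read above the median signal), at a median difference of -0.04. In the list of other cyclins and CDK regulators, 4 of 17 rose and 1 fell. Those that rose were Skp2 (0.38, SE 0.055), an F-box receptor of ubiquitin ligases, Cul1 (0.38, SE 0.050), a scaffold of such ligases, Cks1b (0.35, SE 0.043), which binds CDKs, and Ccnh (0.35, SE 0.053), the cyclin of the CDK-activating kinase. Of 6 Skp2 probe sets, 5 passed as higher. The gene that fell, named after its value was seen, was Fbxw7 (-0.15, SE 0.048, limma adjusted p = 0.0477), another F-box receptor. In the list of further E2F and Myb genes, 2 of 11 rose and 3 fell. E2f7, a repressor E2F that binds no pocket protein, read 8.13 to 8.23 with luciferase esiRNA and 8.68 to 8.87 with Ctr9 esiRNA (0.58, SE 0.053, limma adjusted p = 3.04e-05), and Mybl2, the Myb factor of S phase and mitosis, fell by 0.37 (SE 0.052). Lin37 (-0.30, SE 0.057), of the DREAM complex, was lower, and Tfdp2 (-0.37, SE 0.043), an E2F partner, was lower on its brightest probe set and higher on 2 of its other 3.

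Of 19 polymerase and fork genes, 7 fell and 12 did not pass, at a median of -0.08. The share that fell was 36.8%, against 15.0% of all genes and 21.2% of genes read above the median signal. In either direction, 30.8% of all genes and 42.1% of genes read above the median signal passed. The difference between these shares was not tested. The catalytic subunit gene of the priming polymerase, Pola1, read 10.30 to 10.40 with luciferase esiRNA and 9.92 to 9.98 with Ctr9 esiRNA, and fell by 0.41 (SE 0.044, limma adjusted p = 9.04e-05). Pole2 (-0.30, SE 0.044), Prim1 (-0.28, SE 0.047), the primase, and Rfc4 (-0.21, SE 0.048), a clamp loader subunit, followed. Among 14 origin genes, 2 fell, Mcm10 (-0.29, SE 0.044) and Gins1 (-0.18, SE 0.049), and Orc4 rose on its brightest probe set (0.23, SE 0.061). The next brightest Orc4 probe sets differed by -0.20 and -0.11 without passing, and the dimmest, at 3.95 in the controls, rose by 0.27. Of 7 genes of nucleotide supply and S phase, Dut (0.39, SE 0.045) and Slbp (0.25, SE 0.042) rose and Rrm2b (-0.28, SE 0.076) and Dnmt1 (-0.20, SE 0.046) fell. A dimmer Dut probe set fell by 0.16.

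Among 26 genes of the spindle, its checkpoint and cytokinesis, 22 did not pass, Mad2l1 rose (0.21, SE 0.044), and Nusap1 (-0.27, SE 0.043), Nek2 (-0.22, SE 0.044) and Kif2c (-0.18, SE 0.041) fell. Of 6 measured genes of the DNA damage checkpoint, Mdm2 (-0.41, SE 0.056), Atr (-0.35, SE 0.042) and Brca1 (-0.22, SE 0.046) fell and 3 genes did not pass. Of the 8 lists, the spindle list had the smallest share of genes that passed, 15.4%, below that of all genes and of genes read above the median signal.

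**Figure D4:**
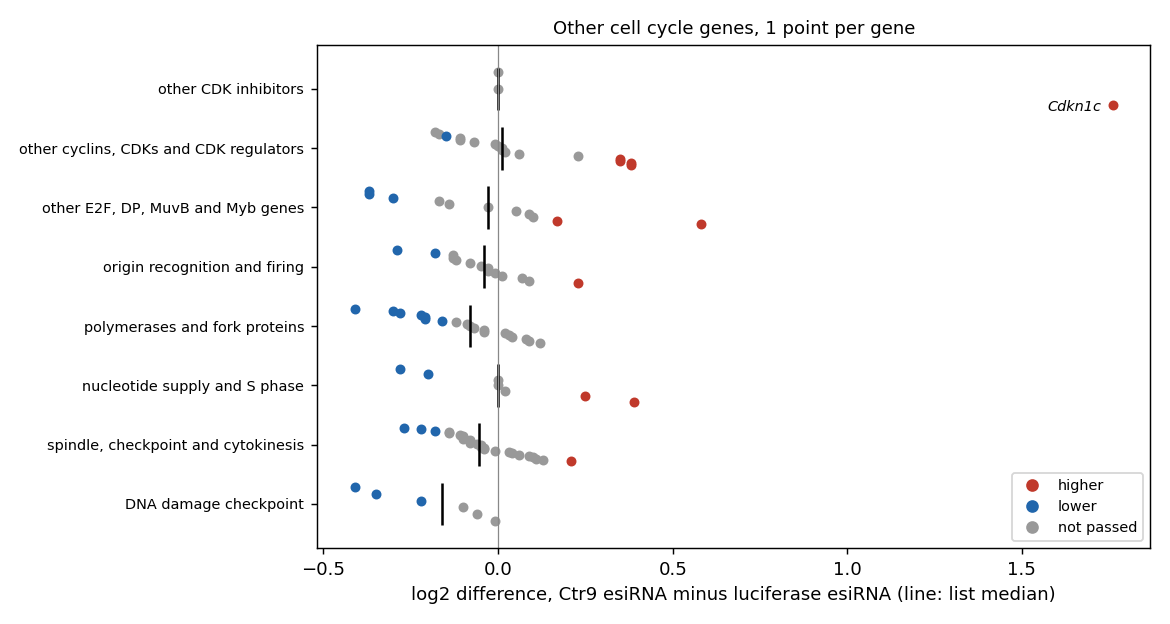
The log2 difference (x axis, Ctr9 esiRNA minus luciferase esiRNA) of the 103 measured genes of 8 further cell cycle lists, 1 point per gene on its brightest probe set and black lines at list medians. Cdkn1c stands alone at 1.76, the other genes lie between -0.41 and 0.58, and the list of polymerases and fork proteins has blue points but no red ones.

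Loss of the target transcript was small at most on these arrays. The brightest of 5 Ctr9 probe sets read 10.12 to 10.26 with luciferase esiRNA and 10.07 to 10.13 with Ctr9 esiRNA (-0.09, SE 0.047, not passed), 2 others fell, by 0.15 and 0.18, and a dim one rose by 0.29. Where on the transcript the esiRNA matches was not analysed here, and the groups are those of the labels. Markers of the labelled cell type were present: the mean log2 level of 8 ES cell genes lay between 13.08 and 13.13 in the luciferase arrays and between 12.78 and 12.81 in the Ctr9 esiRNA arrays, with 4 of 8 lower. Some markers of other cell types moved as well. Their shares are to be read against the 30.8% of all genes that passed and the 15.8% that rose. Of 8 trophectoderm genes 6 rose (list mean 6.69 to 6.92 against 7.80 to 7.89), of 5 primed epiblast genes 5 rose (8.01 to 8.09 against 9.51 to 9.69), and of 6 primitive endoderm genes 2 rose (5.50 to 5.59 against 5.91 to 6.08). The 2 were Dab2 (1.26) and Foxa2 (1.98), and the median of the 6 was 0.01. The endoderm share (33.3%) was close to that of all genes that passed in either direction, but above the 15.8% that rose. The difference between these shares was not tested. Of 12 fibroblast genes, markers of feeder cells, 3 rose (25.0%) and 6 read above the median signal (5.40 to 5.52 against 5.58 to 5.62). Those that rose were Dcn (0.57, limma adjusted p = 0.00692), Twist1 (0.41, limma adjusted p = 0.000441) and Col1a2 (0.24, limma adjusted p = 0.0335), and the other 9 did not pass. The part of these cell types in the changes of Ccnd1, Cdk6, Cdkn2b, the Rb family and the E2F genes was not tested.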

How the data were processed

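RNA of 8 samples was measured on one-colour Affymetrix arrays, 4 per group. The authors deposited log2 signals per probe set, made with GCOS 1.4 and RMA, per the submitters' processing notes, with no settings given. RMA evens out the distributions of the arrays, which hides any shift common to all genes, and it compresses differences of low signals. The values were used as deposited.

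Control probe sets of the manufacturer were left out, which leaves 45037: 34945 with 1 gene symbol in the platform annotation, 932 with several and 9160 unnamed here. Symbols were updated through Entrez identifiers in the GRCm38.p6 gene table. Of these probe sets 456 have 1 empty value, and the fit used the values left. Groups were compared across all probe sets by limma's lmFit and eBayes (version 3.58.1, R 4.3.3), with Benjamini-Hochberg adjustment over all of them and a threshold of 0.05; the code was tested on simulated arrays. SE is limma's moderated standard error.

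Members and lists were chosen with earlier results of these data known. All members may be named, with the values of every array for those that passed; of each other list, up to 4 genes with the smallest adjusted p, and Cdkn1a and Cdkn1c. Promoters are RefSeq's. The alternatives were a filter on dim probe sets, 3 other scalings, weights for arrays, a robust prior with trend, the replicate block, leaving out arrays, a threshold of 0.01, and other choices of probe set. Chosen after seeing the data was the use of probe sets with all 8 values. Figures were drawn with matplotlib 3.10.9.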

Additional observations from a re-analysis of the deposited data

Results flagged for a closer look

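Among 90 groups of 4 values (45 members, 2 groups each), 2 held a value far from the other 3 by Dixon's test, where chance alone gives about 1 in 20. E2f5 read 9.91 in Ctr9 esiRNA replicate 2, above the other 3 arrays at 9.78 to 9.80. E2f6 read 9.37 in luciferase esiRNA replicate 4, below the other 3 at 9.45 to 9.46. The calls of both genes held without that array alone.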

How the results depend on the processing

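Of the 21 members that passed, 9 passed under all 21 alternatives. The count ran from 14 to 18 when 1 array was left out and from 20 to 22 with other scalings or array weights, and rose to 27 above the median signal and 28 with a trended robust prior. A threshold of 0.01 left 13 members, 3660 genes and 7000 probe sets, against 5600 genes and 11209 probe sets at 0.05. Leaving out luciferase arrays 1 and 2 gave 13 members and leaving out 3 and 4 gave 12, with fewer samples in the fit. With the mean of all probe sets Cdt1 turned to 0.02 and did not pass. That mean includes a dim probe set, at 3.19 in the controls, which differed by 0.30. The labels do not say that the replicate numbers pair the samples. Deviations of same-numbered arrays correlated at -0.077 to 0.062, and not every array correlated best with its own number. Correlations this weak cannot decide whether samples were paired. With the replicate block 15 members passed, against 21. Scalings moved the median of all probe sets by less than 0.01. The arrays' number limits the precision, and Cdkn2a alone read below the median signal.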

Other observations

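The deposited table has 456 empty values, in 216 luciferase and 240 Ctr9 esiRNA groups of 4. In these groups the 3 values left spanned a median of 0.006 and 0.0061 on the log2 scale. Among complete groups of 4, the closest 3 values spanned a median of 0.092 and 0.085. In complete groups the gap from an end value to its neighbour reached at most 0.946 and 0.949 of the range. Whether values far from the other 3 were taken out before deposit was not tested. If they were, the standard errors of these probe sets are too small. Of 99 member probe sets 1 has an empty value, the third brightest of Ccnd1, and no member was read on one.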
